A study of Mus musculus with 6 samples.

Results

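The genes described here belong to 7 families of membrane carriers that move amino acids and related small molecules across membranes. Members were chosen by symbol, as every gene beginning with Slc1a, Slc3a, Slc6a, Slc7a, Slc36a, Slc38a or Slc43a and a number, leaving out Slc7a11. This gave 63 of the 22180 genes measured by a probe set with 1 gene symbol. The rule reads symbols alone, but it was set with earlier results of these data known. Of these 63, 60 are carrier or carrier subunit genes and 3 are named as opposite strand transcripts of carrier loci.

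Cells take up amino acids that they cannot make, or cannot make fast enough, through carriers that differ in the amino acids and the driving ions they use. Some carriers work as pairs of a heavy chain, which brings the complex to the membrane, and a light chain, which forms the transport path. Others sit on the lysosome, where they return amino acids to the cytosol and take part in the signal that activates the growth kinase complex mTORC1. Growing blood precursors depend on such uptake, and erythroid precursors in particular carry several neutral amino acid carriers.

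Expression was measured on 6 arrays, 3 titled as stromal cells of mice with acute myeloid leukemia (AML 1 to 3) and 3 of mice with chronic myeloid leukemia (CML 1 to 3). All mice carried the Col2.3 GFP reporter, in which a Col1a1 promoter fragment marks the bone-forming lineage, and all samples were sorted marrow cells that the labels call osteoblastic. Because the source name of every sample reads CML, each direction below rests on the titles. How each leukemia was induced and the age of the mice are not given in the sources used here. Nor is it stated that each sample came from its own mouse, and the p-values may therefore reflect technical spread alone.

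Blood cell markers were read beside bone cell markers on every array. Median intensity ran from 17.2 to 17.8 on the AML arrays and from 18.6 to 20.4 on the CML arrays, and the median log2 intensity of single arrays lay between 4.11 and 4.35. Col1a1, the defining collagen of osteoblasts, had log2 intensities of 8.63, 9.87 and 7.26 in AML 1 to 3, against 10.22, 8.71 and 11.95 in CML 1 to 3. The 12 markers of granule-bearing and monocytic cells averaged 10.3, 10.3 and 9.42 on the AML arrays and 7.59, 7.10 and 7.90 on the CML arrays, with all 12 higher in AML by value and 7 past the test. The 4 measured erythroid markers averaged 4.58, 6.78 and 8.63 on the AML arrays and 7.69, 9.62 and 9.07 on the CML arrays, and none passed. The 14 pan-haematopoietic markers averaged 8.75 to 9.50 on the AML arrays and 6.68 to 8.50 on the CML arrays, all higher in AML by value, with 2 past the test and the pan-leukocyte gene Ptprc not among them (limma adjusted p = 0.176). The granule protease gene Elane read 11.60, 11.19 and 10.32 in AML and 7.08, 6.93 and 7.55 in CML. Osteoblast markers averaged 6.09 to 7.72 on the AML arrays and 6.80 to 9.46 on the CML arrays, B lineage markers 4.10 to 4.96 and 4.21 to 7.48, endothelial markers 4.21 to 4.43 and 4.38 to 4.51, and cycling cell markers 8.16 to 8.80 and 7.91 to 8.60, with none of these genes past the test. By value all 9 measured osteoblast markers and all 6 measured B lineage markers were lower in AML. So were 6 of 7 endothelial markers, while 7 of 9 measured cycling cell markers were higher. In such bulk samples, fewer cells of a type and less RNA per cell cannot be told apart.

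Of the 63 genes, only Slc36a1 rose in AML and none fell at an adjusted p under 0.05, as fitted with limma across all 22180 genes. That is 1.59% of the members, against 1.91% of all genes called in either direction, 1.83% higher and 0.0812% lower, so the share of calls was near the background. By value 11 of the 63 were higher and 52 lower in AML, 17.5% and 82.5%, against 38.3% and 61.7% of all genes, and the median log2 change was -0.23 against -0.11 for all genes. The arrays' scaling moved these medians. Under median centring, quantile normalization and cyclic loess the median of the members was -0.082, -0.12 and -0.089, while that of all genes was 0.040, -0.029 and -0.0071. The members' median thus lay 0.12 below that of all genes as fitted, and 0.12, 0.090 and 0.082 below it under these scalings. The share of members lower by value was 69.8% after centring and after quantile normalization, and 65.1% after cyclic loess. The share of all genes lower under these scalings was not counted, and the 61.7% as fitted is not their background.

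The balance was counted again by level. Among the 29 members in the upper 50% of all genes by mean intensity, 20 were lower in AML by value (69.0%), against 40.2% of all 11090 genes in that range. The median log2 change there was -0.25 for the members and 0.17 for all genes. Among the dimmer genes, 32 of 34 members were lower, or 94.1%, against 83.2% of all genes, and the medians were -0.23 and -0.19. The AML and CML arrays did not overlap for 16 members, with AML above for 4 and AML below for 12. These are 6.35% and 19.0% of the members, against 13.3% and 17.9% of all genes, of which 31.3% did not overlap in either direction. Without adjustment, 3 members were higher and 6 lower at a limma p under 0.05, or 4.76% and 9.52%, against 12.6% and 8.99% of all genes.

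**Figure D1:**
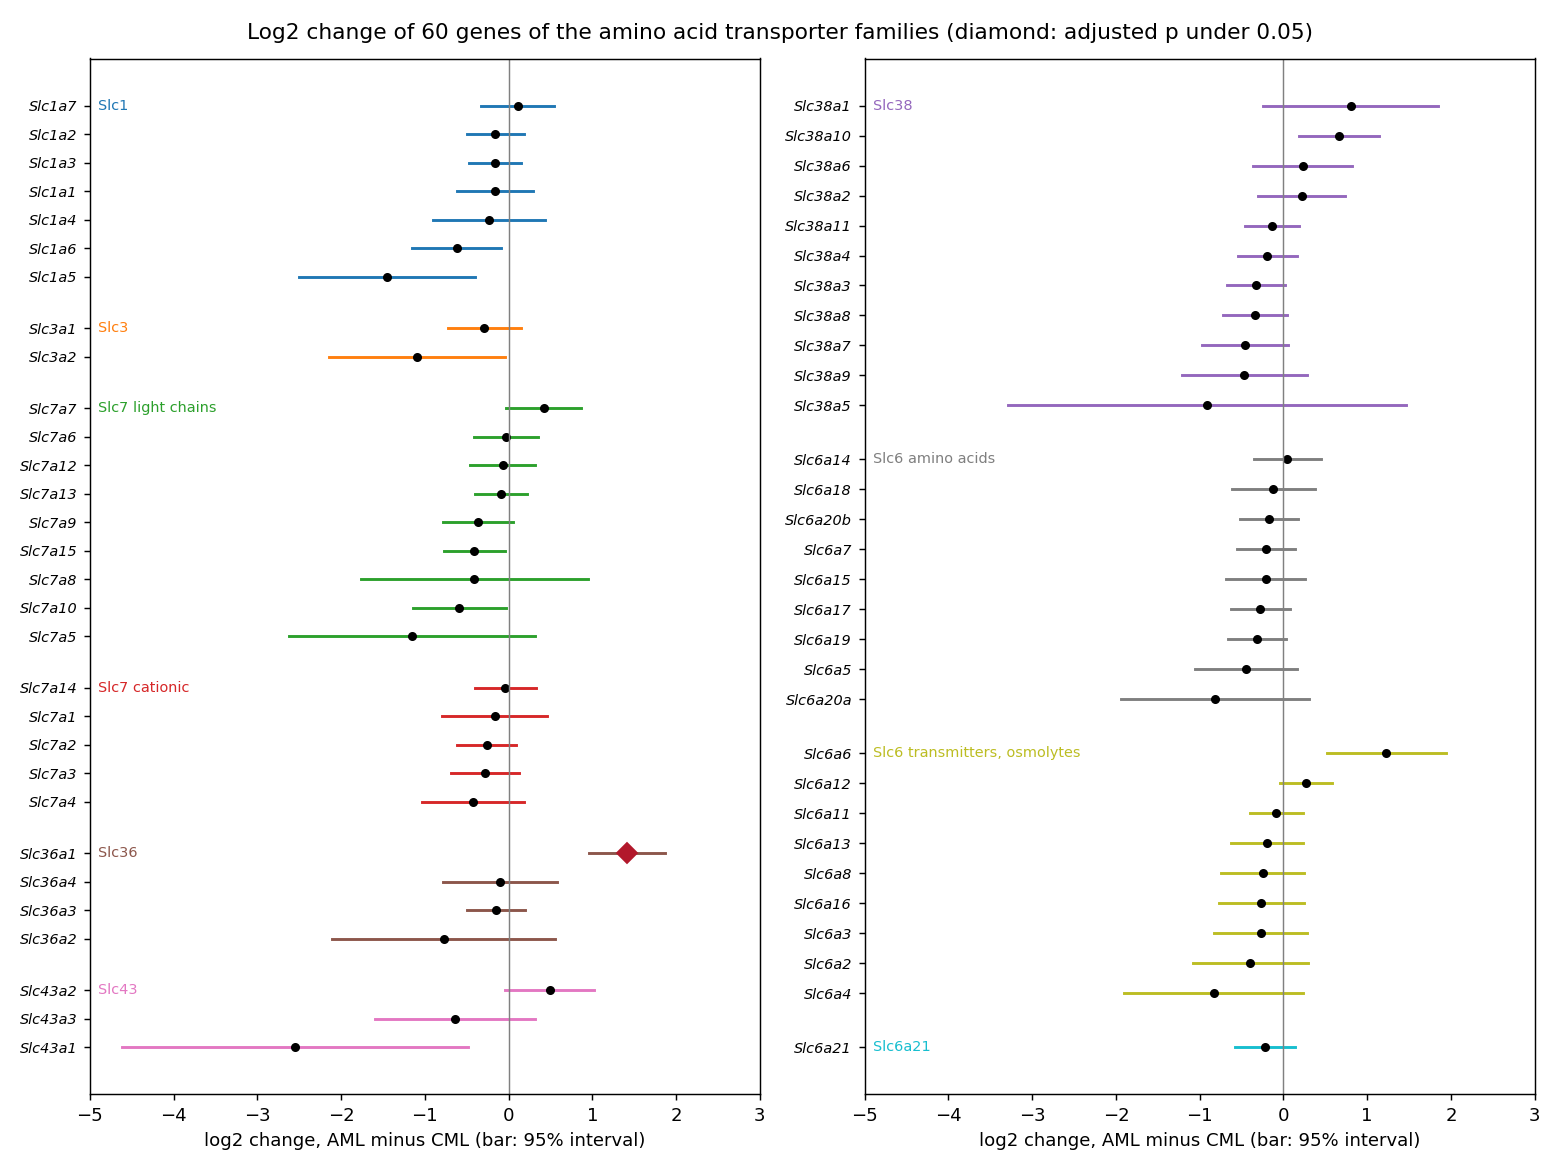
Log2 change, AML minus CML, of 60 genes of the amino acid transporter families, by family (point: limma estimate; bar: 95% interval; diamond: adjusted p under 0.05). Slc36a1 at 1.42 is the only diamond, and the widest spread of changes is among Slc43 genes, from -2.56 for Slc43a1 to 0.49 for Slc43a2.

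The proton-coupled carriers held the gene that passed. Slc36a1 (probe set 17249811, chromosome 11) encodes PAT1, which moves glycine, alanine and proline together with protons and sits on lysosomes as well as on the cell surface. Its log2 intensity was 7.07, 7.24 and 6.62 in AML 1 to 3, against 5.53, 5.50 and 5.65 in CML 1 to 3. Every AML array lay above every CML array, and the 3 CML arrays lay close together. Slc36a1 was 2.67-fold higher in AML, with means of 6.98 ± 0.32 on the AML arrays and 5.56 ± 0.07 on the CML arrays (SD, n = 3 each), a log2 change of 1.42 ± 0.19 (SE; limma adjusted p = 0.0298). Its 95% interval ran from 0.96 to 1.87. The call ended without AML 1 (log2 change 1.37, limma adjusted p = 0.137), AML 2 (1.29, 0.132), CML 2 (1.39, 0.0516) or CML 3 (1.46, 0.0862), and after quantile normalization (1.24, 0.0749) and cyclic loess (1.21, 0.0907). The granule and monocyte markers above moved the same way, and 4 of the 6 arrays held the same rank for Slc36a1 as for their mean. Both had every AML array above every CML array, which by itself makes shared ranks more likely. Slc6a6 and Slc38a10, also without overlap, shared the rank of these markers on 2 and 3 arrays. How many of all genes match this order was not counted. The part of these markers in the Slc36a1 result was not tested.

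The start of Slc36a1 is shown because it is the gene that passed, beside that of Slc43a1, which had the largest difference by value among the members. Both windows run from 250 bases before to 50 bases after the annotated start in RefSeq on GRCm38.p6, at chr11:55204090-55204389 on the plus strand for Slc36a1 and chr2:84840073-84840372 on the plus strand for Slc43a1. Capitals mark the E-box letters CACGTG, which read alike on both strands.
Slc36a1: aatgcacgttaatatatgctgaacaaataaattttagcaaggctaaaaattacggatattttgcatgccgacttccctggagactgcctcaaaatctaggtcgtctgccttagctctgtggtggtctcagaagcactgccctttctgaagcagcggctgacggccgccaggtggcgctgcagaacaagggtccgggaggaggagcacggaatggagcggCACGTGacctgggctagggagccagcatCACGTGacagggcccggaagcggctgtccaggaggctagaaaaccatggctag
Slc43a1: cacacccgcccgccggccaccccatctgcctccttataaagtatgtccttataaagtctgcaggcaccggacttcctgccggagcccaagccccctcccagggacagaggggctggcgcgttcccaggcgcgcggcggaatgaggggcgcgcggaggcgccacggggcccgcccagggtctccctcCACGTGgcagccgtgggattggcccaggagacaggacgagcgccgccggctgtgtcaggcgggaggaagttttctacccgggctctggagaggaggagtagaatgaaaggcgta

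The Slc36a1 window held the E-box letters at 2 places, as did 0.594% of 32851 promoter windows of the same length, and no other member's window did. Windows with at least 2 copies were counted for this motif only, the one that the Slc36a1 window held. The share is a description alone, and a part of the E-box in the Slc36a1 difference was not tested. Factors of the MYC and TFEB families are known to bind the E-box letters, but a match is no measure of binding. Windows were held for 46 of the 63 members, 65 windows in all, and 9 of them had CACGTG (13.8%, against 7.15% of all windows). The letters TGATGNAA, a core of amino acid response elements read by ATF4 and C/EBP factors, were in 4 of the 65 on either strand (6.15%, against 3.97%). The GATA letters AGATAA were in 5 on either strand (7.69%, against 11.2%). The window of Slc43a1 had 1 E-box and neither of the other motifs.

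The other 3 proton-coupled carriers did not pass. Slc36a4, a carrier of proline and tryptophan, stood at 9.19, 8.64 and 9.12 in AML 1 to 3 and at 9.61, 8.65 and 8.99 in CML 1 to 3, with overlapping groups and a log2 change of -0.10 ± 0.28 (SE; limma adjusted p = 0.836). A second, dim probe set of Slc36a4 gave 0.66 (limma adjusted p = 0.288), and the sign of the mean over both was positive, at 0.28. Slc36a2, a glycine and proline carrier of the kidney, read 4.76, 4.53 and 4.50 in AML and 4.75, 4.61 and 6.77 in CML, so that CML 3 alone stood high. Its change of -0.78 went to -0.081 without CML 3. Slc36a3, at -0.15, lay below the array median on all 6 arrays and changed sign under quantile normalization and cyclic loess.

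Among the Slc6 genes listed as carriers of transmitters and osmolytes, 0 of 9 measured genes passed, with 2 higher and 7 lower by value. The list includes Slc6a16 (-0.26), for which no substrate is given in the sources used here. Slc6a6 encodes the carrier of taurine, an amino sulfonic acid abundant in white blood cells. It read 7.94, 7.54 and 7.65 in AML 1 to 3, against 6.42, 7.07 and 5.95 in CML 1 to 3. Each AML array lay above each CML array, and Slc6a6 was 2.34-fold higher by value without passing (log2 change 1.23 ± 0.30, SE; limma adjusted p = 0.0945). Without CML 2, the highest CML array, it passed at 1.53 (limma adjusted p = 0.0444). Slc6a12, the carrier of betaine and GABA, read 5.63, 5.70 and 5.64 in AML and 5.28, 5.43 and 5.47 in CML. Its groups did not overlap either, and its difference was small, at 0.26 ± 0.13 (SE; limma adjusted p = 0.281).

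The serotonin carrier gene Slc6a4 read 3.26, 3.77 and 4.06 in AML and 5.49, 4.30 and 3.80 in CML, where CML 1 stood apart, and its change of -0.83 ± 0.45 did not pass (SE; limma adjusted p = 0.308). It was -0.35 without CML 1 and -1.20 without CML 3. The creatine carrier Slc6a8 differed by -0.25, and the carriers of noradrenaline and dopamine, Slc6a2 and Slc6a3, by -0.39 and -0.27.

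None of the 9 measured Slc6 carriers of amino acids passed, 8 were lower by value and their median was -0.21. Slc6a20a, a carrier of proline and related imino acids, read 4.21, 4.62 and 6.02 in AML and 5.63, 6.16 and 5.51 in CML. AML 3 lay within the CML arrays, and the change was -0.82 ± 0.47 (SE; limma adjusted p = 0.331). It was -1.35 without AML 3 and -0.44 without AML 1. Its close copy Slc6a20b differed by -0.18, and probes of such copies may share signal. Slc6a19, the neutral amino acid carrier of kidney and gut, lay below the array median on every array, with means of 3.50 ± 0.16 on the AML arrays and 3.82 ± 0.07 on the CML arrays (SD, n = 3 each). Slc6a17, a vesicular carrier of neurons, and Slc6a5, a glycine carrier of inhibitory neurons, differed by -0.28 and -0.45. Slc6a21 differed by -0.22.

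The sodium-coupled neutral carriers of the Slc38 family split by value, with 4 higher and 7 lower of 11 and none past the test. Slc38a10 read 6.45, 6.69 and 6.59 in AML 1 to 3, against 5.97, 5.56 and 6.20 in CML 1 to 3. All AML arrays lay above all CML arrays, with a log2 change of 0.66 ± 0.20 (SE; limma adjusted p = 0.141). A second probe set of this gene read 0.22 (limma adjusted p = 0.417). Slc38a1, a system A carrier that concentrates glutamine and other small neutral amino acids, read 7.06, 7.36 and 7.34 in AML and 7.36, 6.48 and 5.51 in CML. CML 1 lay with the AML arrays and CML 3 lay lowest, and the change of 0.80 ± 0.44 did not pass (SE; limma adjusted p = 0.313). It ran from 0.33 to 1.26 with 1 array left out, the lowest without CML 3.

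Slc38a2, the system A carrier known to be induced when amino acids run short, read 8.75, 8.70 and 8.43 in AML and 8.57, 8.66 and 7.99 in CML. The groups overlapped, and its change of 0.22 ± 0.22 turned to -0.13 after cyclic loess (SE; limma adjusted p = 0.537 as fitted). Slc38a9 encodes a lysosomal carrier that reports arginine to mTORC1 in human cells. It read 5.39, 6.03 and 5.60 in AML and 5.98, 6.75 and 5.69 in CML, with overlapping groups and a change of -0.47 ± 0.31 (SE; limma adjusted p = 0.382). Leaving out 1 array moved it between -0.69 and -0.16, the smallest without CML 2. Slc38a7, a lysosomal glutamine carrier in human cells, read 4.24, 4.22 and 3.82 in AML and 4.50, 4.26 and 4.89 in CML. Every AML array lay below every CML array, although AML 1 and CML 2 were close, and the change of -0.46 ± 0.21 did not pass (SE; limma adjusted p = 0.266). Slc38a3, a system N glutamine carrier, and Slc38a8 were likewise lower on every AML array than on any CML array, by 0.33 and 0.34 on the log2 scale, and neither passed (limma adjusted p = 0.247 and 0.261). Across the alternatives run, the changes of Slc38a3 and Slc38a8 shrank to as little as -0.11 and -0.19. Slc38a3 lay below the array median on every array.

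**Figure D2:**
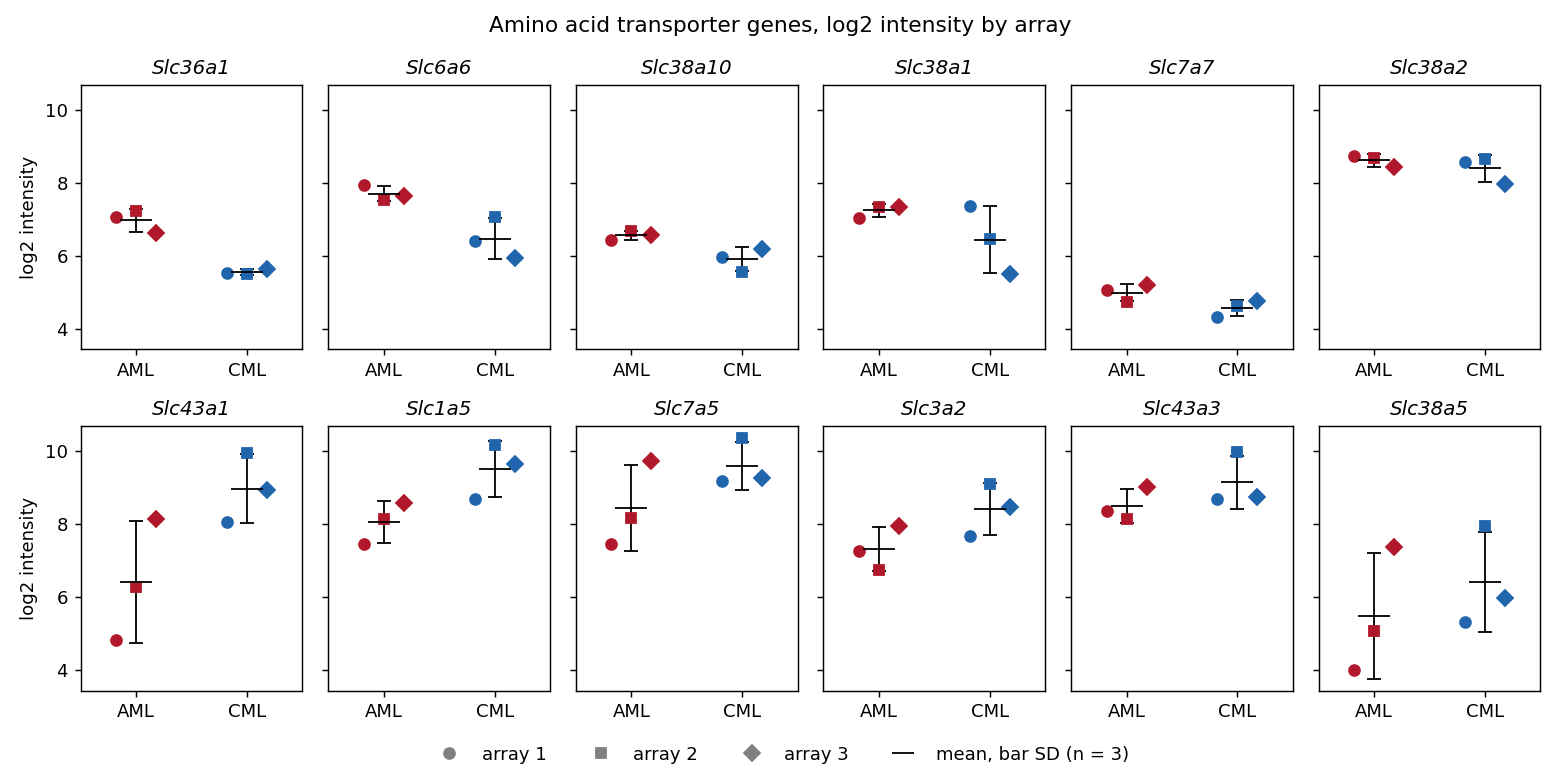
Log2 intensity of 12 carrier genes on each array, AML left and CML right in each panel (symbols: arrays; horizontal mark: mean; bar: SD, n = 3). Slc36a1, Slc6a6 and Slc38a10 have all AML arrays above all CML arrays and Slc1a5 has all AML arrays below, while Slc43a1, Slc7a5 and Slc38a5 spread widely within a group.

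The 4 members with the largest differences toward lower values in AML were Slc43a1, Slc1a5, Slc7a5 and Slc3a2, and none of them passed the test. Slc43a1 (probe set 17372621, chromosome 2) encodes LAT3, a facilitator of leucine and other large neutral amino acids. It read 4.84, 6.29 and 8.15 in AML 1 to 3, against 8.07, 9.95 and 8.93 in CML 1 to 3. AML 3 lay just above CML 1, and the AML arrays were spread widely. Slc43a1 averaged 6.43 ± 1.66 on the AML arrays and 8.98 ± 0.94 on the CML arrays (SD, n = 3 each), a log2 change of -2.56 ± 0.86 (SE; limma adjusted p = 0.174). Its change ran from -3.42 without AML 3 to -1.76 without AML 1.

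Slc1a5 (probe set 17486956, chromosome 7) encodes ASCT2, a sodium-dependent exchanger through which many growing cells take up glutamine. It read 7.46, 8.15 and 8.58 in AML 1 to 3, against 8.70, 10.19 and 9.67 in CML 1 to 3. Every AML array lay below every CML array, although AML 3 and CML 1 were close, and the log2 change was -1.45 ± 0.44 (SE; limma adjusted p = 0.145). The other probe set of Slc1a5 gave -1.42 ± 0.34 (SE; limma adjusted p = 0.0937). Leaving out 1 array moved the change between -1.86 and -1.12, and Slc1a5 passed in none of the alternatives run (limma adjusted p from 0.0657 to 0.359).

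The heavy chain CD98 and its light chain for leucine were both lower in AML by value, without passing. Slc3a2 encodes CD98, which several Slc7 light chains share. It read 7.28, 6.75 and 7.96 in AML and 7.68, 9.11 and 8.47 in CML, with AML 3 above CML 1 and a change of -1.09 ± 0.44 (SE; limma adjusted p = 0.220). Slc7a5 encodes LAT1, the light chain that brings in leucine and other large neutral amino acids in exchange for glutamine. It read 7.46, 8.16 and 9.74 in AML and 9.19, 10.36 and 9.27 in CML. AML 3 exceeded CML 1 and CML 3, and the change was -1.15 ± 0.61 (SE; limma adjusted p = 0.306). The change of Slc7a5 ran from -1.79 to -0.65 with 1 array left out.

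The other light chains did not share this size. Of 9 light chain genes none passed, 8 were lower by value and the median was -0.37. Slc7a7, a light chain of macrophages and epithelia that exports arginine and lysine, was the only one higher by value. It read 5.07, 4.74 and 5.20 in AML and 4.34, 4.64 and 4.76 in CML, with a change of 0.42 ± 0.19 (SE; limma adjusted p = 0.248). Slc7a6, which has the same transport type, differed by -0.027 ± 0.16 and Slc7a8, the light chain LAT2, by -0.41 ± 0.57 (SE). Slc7a10, a carrier of small neutral amino acids, and Slc7a15 were lower on every AML array than on any CML array, at -0.59 and -0.41 (limma adjusted p = 0.215 and 0.201). The other heavy chain, Slc3a1, and its light chain Slc7a9 form the cystine carrier of the kidney. Both lay below the array median on every array, at -0.29 and -0.37.

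Among the 5 cationic carriers of the Slc7 family none passed, and all were lower by value with the median at -0.26. Slc7a1, the general arginine and lysine carrier CAT1, read 6.45, 6.74 and 7.04 in AML and 6.58, 7.40 and 6.76 in CML. The groups overlapped widely, and the change of -0.17 ± 0.26 turned to 0.075 without CML 2 (SE; limma adjusted p = 0.699 as fitted). Slc7a2, Slc7a3 and Slc7a4 differed by -0.26, -0.29 and -0.42, and Slc7a2 and Slc7a3 lay below the array median on every array.

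Of the glutamate carriers in the Slc1 family, Slc1a6 was lower on every AML array, at 4.16, 4.40 and 4.03 against 4.75, 4.48 and 5.21 in CML, and did not pass (log2 change -0.62 ± 0.22, SE; limma adjusted p = 0.187). Slc1a3, the glutamate carrier of glial cells, differed by -0.16 and read below the array median on every array. Slc43a2, a facilitator of large neutral amino acids like Slc43a1, read 4.94, 5.23 and 4.51 in AML and 4.52, 4.53 and 4.16 in CML. It was higher by value in AML, by 0.49 ± 0.22 (SE; limma adjusted p = 0.253), whereas Slc43a1 was lower. Slc43a3, known as a purine base carrier, read 8.37, 8.14 and 9.01 in AML and 8.71, 9.98 and 8.75 in CML, with CML 2 alone above all AML arrays and a change of -0.64 ± 0.40 (SE; limma adjusted p = 0.361). Without CML 2 the change was -0.23.

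Slc43a1 and the mean of the erythroid markers had the same order across the arrays. This mean ran, from low to high, through AML 1, AML 2, CML 1, AML 3, CML 3 and CML 2, and Slc43a1 had this order on all 6 arrays. Slc1a5, Slc7a5 and Slc3a2 matched it in rank on 4 of 6 arrays and Slc43a3 on 2. Slc38a5, a system N glutamine carrier picked out after its values were seen, matched on 4. It read 4.02, 5.08 and 7.39 in AML and 5.32, 7.95 and 5.97 in CML, spanning both groups, with a change of -0.91 ± 0.99 (SE; limma adjusted p = 0.574). Among other members, Slc38a9 matched the erythroid order on 2 arrays, Slc36a1, Slc38a1 and Slc38a2 on 1, and Slc6a6 and Slc38a10 on 0. How many of all genes share this order was not counted. Within the CML arrays, Slc43a1, Slc1a5, Slc7a5, Slc3a2, Slc43a3 and Slc38a5 had CML 1 lowest and CML 2 highest, as the erythroid markers did. Within the AML arrays all 6 had AML 3 highest, and Slc3a2 and Slc43a3 had AML 2 rather than AML 1 lowest. These orders within the groups were not particular to the erythroid markers. The mean of the cycling cell markers also had CML 1 lowest and CML 2 highest in CML, and in AML it had the order of Slc3a2 and Slc43a3. The mean of the pan-haematopoietic markers ran in the reverse of the erythroid order within both groups. Over all 6 arrays the cycling cell markers matched the erythroid order in rank on 1 array and the pan-haematopoietic markers on 2. Within AML the erythroid mean was 4.58 on AML 1 and 8.63 on AML 3. The part of these markers in the differences between AML and CML was not tested.

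**Figure D3:**
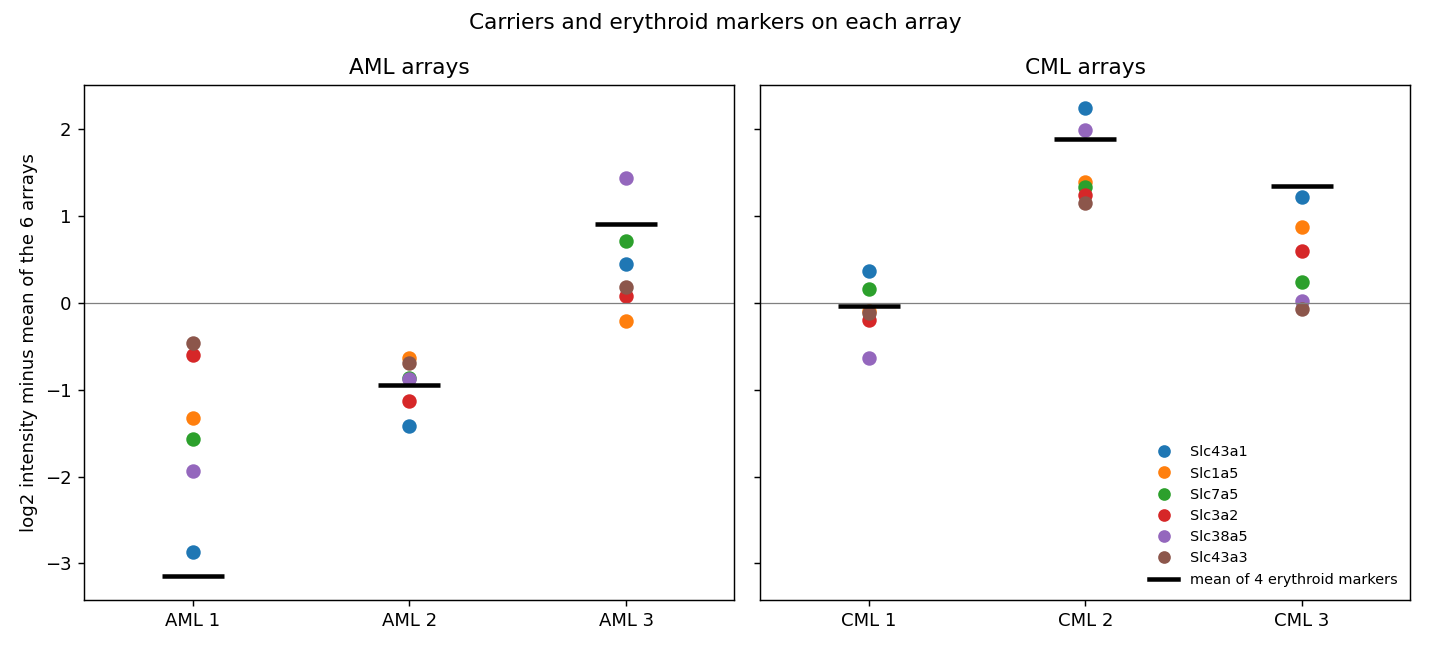
Log2 intensity of 6 carrier genes on each array minus their mean over the 6 arrays (coloured points), with the mean of 4 erythroid markers on the same scale (black bars), AML arrays left and CML arrays right. AML 1 has the lowest erythroid mean, at -3.15, and CML 2 the highest, at 1.89, and Slc43a1 has its lowest and highest values on the same arrays.

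On all 6 arrays 22 of the 63 genes lay below the array's median log2 intensity. That is 34.9% of the members, near the 34.3% of all genes. No detection p-value was used. Log2 changes exceeded 1 in either direction for 6 members, 2 higher (Slc36a1 and Slc6a6) and 4 lower (Slc43a1, Slc1a5, Slc7a5 and Slc3a2). The opposite strand transcripts Slc36a1os, Slc6a19os and Slc7a6os differed by -0.30, -0.32 and -0.16, and none passed (limma adjusted p from 0.313 to 0.828).

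The genes through which amino acids act on mTORC1 were listed apart from the members. Of 24, Fnip1 rose and none fell, with 14 higher and 10 lower by value and a median of 0.22 (1.91% of all genes were called in either direction). Of these genes 22 lay in the brighter 50% of all genes, where 59.1% of them and 59.8% of all genes were higher by value. The medians there were 0.22 and 0.17, so by sign and median the list stood near the background. Fnip1, a partner of folliculin in signalling to the Rag GTPases, read 7.27, 6.62 and 6.56 in AML and 5.10, 5.23 and 5.47 in CML. The groups did not overlap, with a log2 change of 1.55 ± 0.23 (SE; limma adjusted p = 0.0358). The call ended whichever array was left out (log2 change 1.32 to 1.68, limma adjusted p from 0.0533 to 0.137), and after quantile normalization (1.41, 0.0743) and cyclic loess (1.38, 0.0832). Among the 5 subunits of Ragulator, the lysosomal anchor of the Rag GTPases, Lamtor1, Lamtor2 and Lamtor4 were above CML on all AML arrays, by 1.05, 1.07 and 1.38, and did not pass. Lamtor3 and Lamtor5 differed by 0.32 and -0.0039. These 5 were picked out after their values were seen. Of the 24 genes, 8 had AML above CML without overlap and 0 had AML below, against 13.3% and 17.9% of all genes. By share, more of the list than of all genes had AML above, and less had AML below. The shares among the brighter genes, which held 22 of the 24, were not counted. Whether the list departs from that background by this measure is therefore not known.

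**Figure D4:**
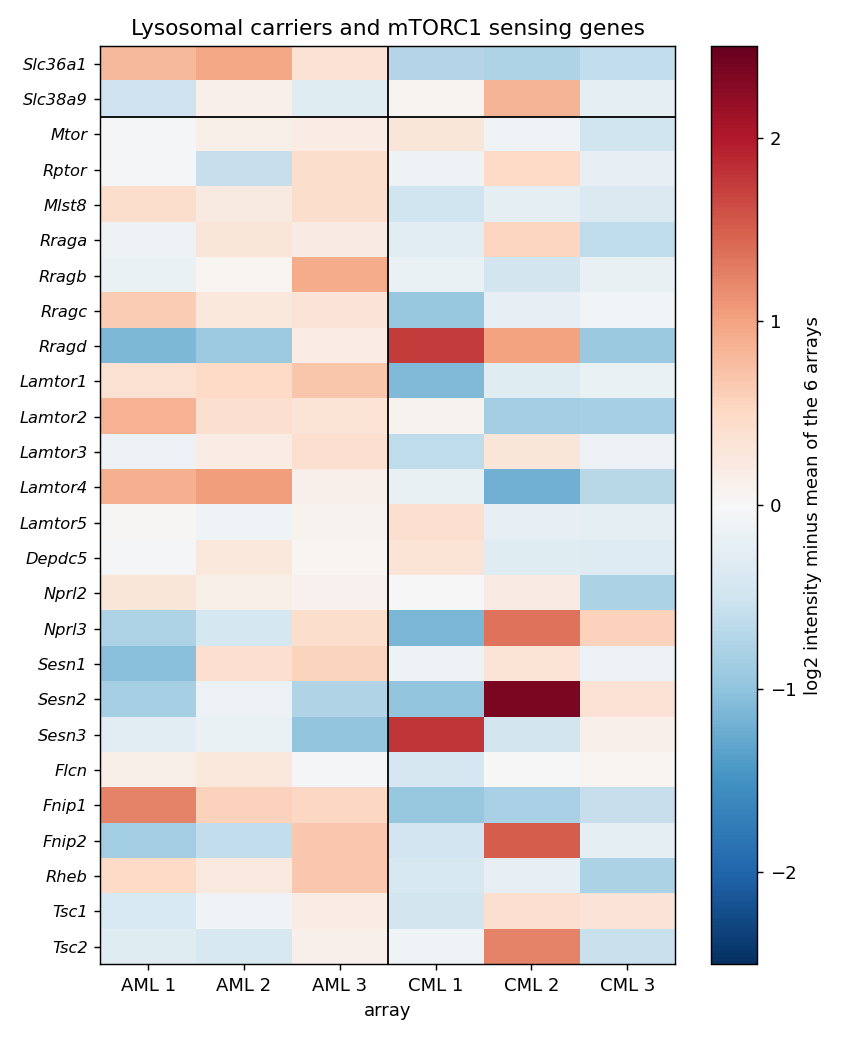
Log2 intensity minus the mean of the 6 arrays for Slc36a1, Slc38a9 and 24 genes of amino acid sensing to mTORC1 (rows), with AML arrays left of the line and CML arrays right. Slc36a1 and Fnip1 are above their means on all AML arrays and below on all CML arrays, while Slc38a9 and Sesn2 are highest on CML 2.

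Genes of the amino acid shortage response gave no call. Of 13 genes acting through the kinase GCN2 and the factor ATF4, none passed and 11 were lower by value. Their median was -0.63, against -0.11 for all genes. Of the 13, 10 lay among the brighter genes, where 10% of them and 59.8% of all genes were higher by value. The medians there were -0.81 and 0.17. Of the 3 dimmer genes 1 was higher, with medians of -0.40 for the list and -0.19 for all dimmer genes. By sign and median the brighter genes of the list stood below their background, and this difference was not tested. Ddit4, an inhibitor of mTORC1, read 5.70, 5.85 and 5.64 in AML and 7.17, 7.26 and 6.18 in CML, a change of -1.14 ± 0.30 (SE; limma adjusted p = 0.111). Eif2ak4, which encodes GCN2 itself, was higher by value, at 4.64, 4.66 and 4.95 in AML against 4.15, 4.30 and 3.82 in CML (log2 change 0.66 ± 0.18, SE; limma adjusted p = 0.123). The mean of the 13 was highest on CML 2, at 7.03, against 5.84 to 5.95 on the AML arrays and 6.01 and 6.42 on CML 1 and CML 3. CML 2 was also the highest array for Slc1a5, Slc7a5 and Slc3a2. It was likewise the highest for the mean of the erythroid markers (9.62) and that of the aminoacyl-tRNA synthetase genes (8.02). Within AML these carriers were highest on AML 3, where the mean of the 13 was lowest, at 5.84. A link between this response and the carriers was not tested.

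Of 21 measured genes of amino acid synthesis and breakdown 1 rose and none fell (1.91% of all genes were called in either direction). By value 8 were higher and 13 lower, with a median of -0.18. Bckdha, a subunit of the enzyme complex that commits branched-chain amino acids to breakdown, read 6.37, 6.23 and 6.07 in AML and 4.91, 5.12 and 4.80 in CML, a log2 change of 1.28 ± 0.16 (SE; limma adjusted p = 0.0248). The call ended without AML 1 (1.21, limma adjusted p = 0.123), AML 2 (1.27, 0.131) or CML 3 (1.21, 0.0849), and after quantile normalization (1.22, 0.0568) and cyclic loess (1.21, 0.0525). Of 17 measured aminoacyl-tRNA synthetase genes none passed, with 9 higher and 8 lower by value. Cars, for cysteine, differed by -1.03 and Rars, for arginine, by 0.64 (limma adjusted p = 0.127 and 0.213). Among 17 amino acid carriers of other families none passed, with a median of -0.09. Slc25a12, the mitochondrial carrier of aspartate and glutamate, was 1.41 ± 0.26 higher by value, and Slc15a4, a lysosomal carrier of histidine and peptides, 0.79 ± 0.17 higher (SE; limma adjusted p = 0.0531 and 0.0744). Bsg, a chaperone of several carriers, differed by -0.59 ± 0.47 (SE; limma adjusted p = 0.455), with its highest value on CML 2.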

How the data were processed

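RNA of sorted marrow cells was measured on 1 Affymetrix array per sample, 3 AML and 3 CML, per the labels' protocols. The deposited probe set values are linear intensity, a unit taken from their range. Limma and lumi are named in the submitters' processing notes, while background correction and normalization are not given in the sources used here. No read depth applies, and the number of arrays limits the precision.

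The intensities were taken to log2 (a floor at 1 was set and 0 values were at it) and fitted with limma 3.58.1 (R 4.3.3; lmFit, eBayes) over 22180 genes, each stood for by its highest-mean probe set. Changes are AML minus CML, tests are two-sided, and p-values were adjusted by Benjamini-Hochberg over all genes. Of 39721 probe sets, 23521 had 1 symbol, 1814 several and 14386 none in the platform annotation. The 63 members had 66 probe sets, 1 probe set listing a member among several symbols was left out, and all 63 matched RefSeq by Entrez identifier. Promoter windows came from RefSeq (GRCm38.p6).

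Named were members past the threshold, the 3 with the lowest p and the one with the highest mean in each group, and 10 set by name, 34 in all. From each other list, up to 4 genes past the threshold or the 2 with the lowest p were named. Other members were named to complete their family, and other genes where said, after their values were seen. Members, lists and rules were chosen with earlier results of these data known.

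Nothing in the labels says that the replicate numbers pair the samples, so the main fit held no block. Deviations of same-numbered AML and CML arrays correlated at 0.24, -0.30 and -0.25 across genes. With 3 arrays per group these values cannot settle whether the numbers stand for a pairing or a shared batch. The fit was tested on simulated data, with changes planted in 50 genes at each size. It called 32% of planted log2 changes of 1 and 68% of those of 2. A gene that did not pass may therefore still differ. Figures were drawn with matplotlib 3.10.9 (Python 3.11.15).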

Additional observations from a re-analysis of the deposited data

How the results depend on the processing

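Precision was limited by 3 arrays per group. With 1 array left out, the change of 18 of the 34 members named by rule moved by over 1.5 times or turned. The count of 423 genes past the threshold was 93 after quantile normalization, 64 after cyclic loess, 896 after median centring, 639 with array weights and 0 with a replicate block in limma (3711 at an unadjusted p under 0.05). It ran from 0 to 438 with 1 array left out, and was 0 without AML 1, AML 2 or CML 3 (limma gave 3048, 3750 and 3533 with unadjusted p under 0.05). The count of members past it was 1 as fitted. Cyclic loess gave 0, quantile normalization 0 and the replicate block 0 (limma gave 10, 8 and 6 members with unadjusted p under 0.05). It ran from 0 to 1 with 1 array left out. Slc36a1 had a limma adjusted p of 0.116 with the replicate block, which changed no other call among the named members, and Fnip1 and Bckdha had 0.129 and 0.112. Slc25a12 passed after median centring, among the brighter 50% of genes, with array weights and without CML 2 (limma adjusted p from 0.0372 to 0.0416), Slc15a4 after median centring (0.0425) and Cars without CML 1 (0.0495). The members' median of -0.23 moved to -0.082 after median centring and -0.089 after cyclic loess, and ran from -0.27 to -0.20 with 1 array left out. The median of all genes turned to 0.040 after median centring and to 0.17 among the brighter 50% of genes. The sign turned for Slc36a3 (0.015 after quantile normalization, 0.051 after cyclic loess), Slc1a3 (0.0013) and Slc38a2 (-0.13) after cyclic loess, and Slc7a1 without CML 2 (0.075, in a range from -0.33 to 0.075 with 1 array left out). Slc36a4 turned to 0.050 after median centring, 0.28 with the mean of its probe sets, 0.072 without AML 2 and 0.16 without CML 1 (range -0.32 to 0.16 with 1 array left out). Other small negative changes shrank across the alternatives without turning, that of Slc7a2 to -0.073, Slc6a19 to -0.096 and Slc7a15 to -0.19. Why these values moved was not tested.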
